A study of Mus musculus with 4 samples.

Results

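Testosterone is made in the Leydig cells of the testis by a short chain of proteins, and 10 genes of that chain were examined in the testes of Azin2 KO and WT mice: Star, Cyp11a1, Cyp17a1, Hsd3b1, Hsd3b6, Hsd17b3, Tspo, Fdx1, Fdxr and Scarb1. The genes were chosen by symbol, as every probe set that the platform annotation of the Affymetrix Mouse Gene 1.1 ST array pairs with one of them. Of the 10 genes, 9 have a probe set, 1 each, and none of the 9 probe sets is shared with another gene or repeats the values of another probe set. They belong to 18820 genes with a probe set of their own. No probe set is paired with Fdxr in the annotation used, and Fdxr was not analysed here.

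Total RNA of whole testis was hybridized to 4 arrays, 2 from Azin2 knock out (KO) mice and 2 from wild type (WT) mice. Each array carried 1 pool, which the labels describe as 3 testes and the paper as RNA of 3 mice. In the KO males, whose mixed background is partly C57BL/6, a β-Geo cassette lies between exons 4 and 5 of both Azin2 alleles. It leaves the start of AZIN2 fused to β-galactosidase and puts that reporter under the Azin2 promoter. The mice were adults aged 3 to 4 months. No treatment is given for either group, and neither is whether WT and KO mice were littermates. AZIN2 is an antizyme inhibitor of polyamine metabolism, and the study asked whether its loss alters testosterone production, among other functions. By a hormone assay, the paper reports lower testosterone in the testes and plasma of Azin2 KO mice. The arrays measure mRNA and not the hormone. The values are log2 signals per probe set, so that a difference of 1 is a doubling of signal. On the arrays, Azin2 itself was at 7.36 and 7.14 in KO replicates 1 and 2 and at 10.16 and 10.00 in WT replicates 1 and 2 (KO minus WT -2.83, adjusted p = 0.0250 from limma). The median signal of the arrays lay between 6.08 and 6.11. The 8 haploid germ cell markers, such as Prm1 and Tnp1, were above the median of every array. So were Nr5a1, Inha and Fabp3 of the Leydig cell marker list.

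In Leydig cells, luteinizing hormone acts through cyclic AMP to deliver cholesterol to the mitochondria. Scarb1 is the receptor that takes cholesterol esters from high-density lipoprotein, Star is the acutely regulated protein that moves cholesterol to the inner mitochondrial membrane, and Tspo is a cholesterol-binding protein of the outer membrane whose part in this step is debated. Cyp11a1 cleaves the cholesterol side chain with electrons passed by ferredoxin reductase (Fdxr) and ferredoxin (Fdx1). The hydroxysteroid dehydrogenases Hsd3b1 and Hsd3b6, the hydroxylase and lyase Cyp17a1 and the dehydrogenase Hsd17b3 then turn the product into testosterone.

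None of the 9 genes passed the test between KO and WT testes. The mean signal was lower in KO for all 9, by 0.02 (Cyp17a1) to 0.19 (Tspo) on the log2 scale, with a median KO minus WT of -0.08. Over all 18820 genes the median was 0.01, and 43.4% of genes were below 0. Of the 9, 0 passed an adjusted p of 0.05 from limma, against 0.00433% of the 23099 named probe sets, and the adjusted p was 1.0 for each of them. The study's own array thresholds, a 1.5-fold difference with an unadjusted p under 0.05, were also passed by 0 of 9, against 0.0823% of probe sets. At an unadjusted p under 0.05 alone the count was 0 of 9, against 4.10%. Each KO pool was lower than each WT pool for 2 of the 9 genes, Tspo and Fdx1, where 12.2% of all genes did so. In RNA of whole testis, fewer Leydig cells and less of an mRNA in each cell cannot be told apart.

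**Figure D1:**
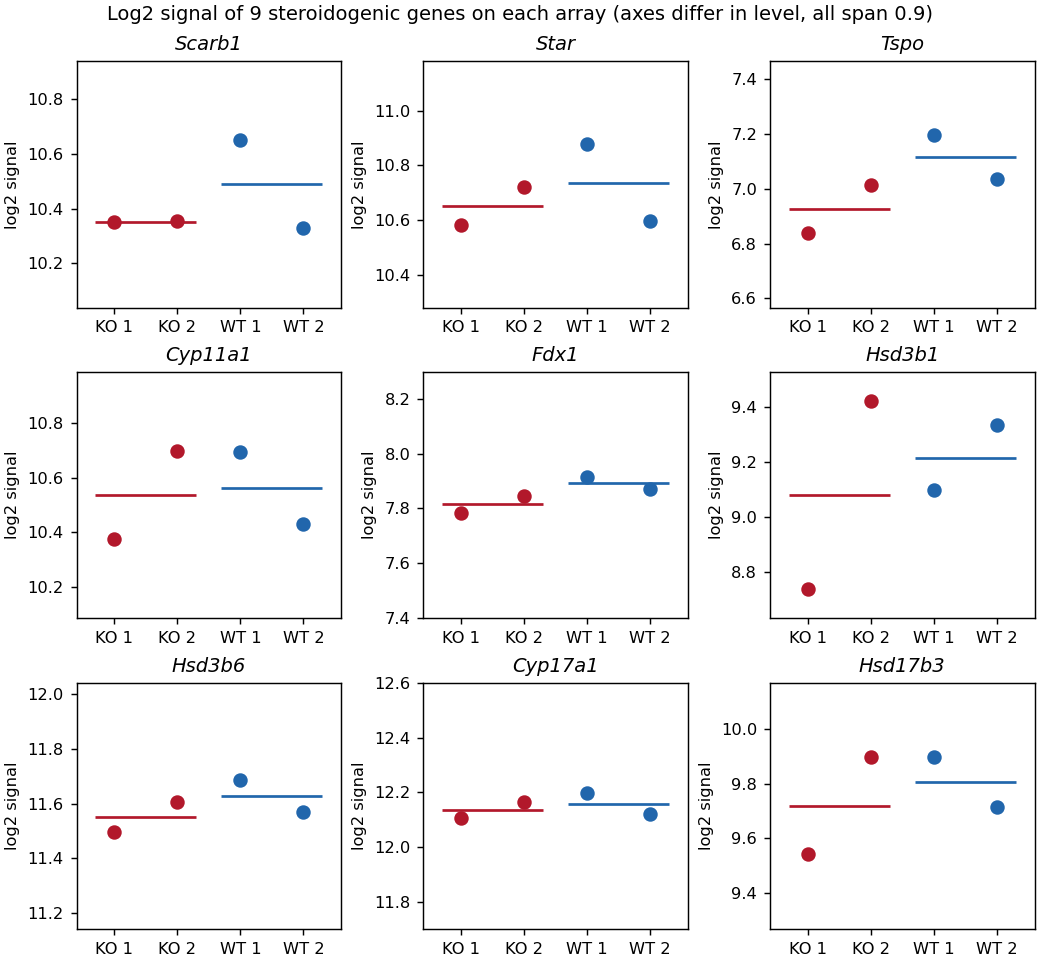
Log2 signal (vertical axes, each spanning 0.9) of the 9 genes on each of the 4 arrays (horizontal axes). Each point is 1 array, red for KO and blue for WT, and each bar is the mean of 2 arrays. Only Tspo and Fdx1 have both KO points below both WT points.

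Among the genes of cholesterol delivery, Scarb1 had a log2 signal of 10.35 and 10.35 in KO replicates 1 and 2, and of 10.65 and 10.33 in WT replicates 1 and 2. Only WT replicate 1 stood apart, and WT replicate 2 was the lowest of the 4 arrays. The mean was 10.35 ± 0.0023 (SD, n = 2 pools) in KO and 10.49 ± 0.23 in WT testes, a KO minus WT of -0.14 (unadjusted p = 0.276 from limma). Star had a log2 signal of 10.58 and 10.72 in the KO pools and of 10.88 and 10.60 in the WT pools. The groups overlapped, with KO replicate 2 above WT replicate 2. Its signal in KO was 94.3% of that in WT (95% confidence interval 77.4% to 115%; log2 difference -0.08, unadjusted p = 0.479 from limma). Tspo had a log2 signal of 6.84 and 7.02 in KO and of 7.20 and 7.03 in WT. KO replicate 2 and WT replicate 2 differed by less than the pools of either genotype did, although the groups did not overlap. Tspo had the lowest KO minus WT of the 9 genes, -0.19 (standard error 0.09), or 87.7% of the WT signal (95% confidence interval 74.8% to 103%, unadjusted p = 0.0891 from limma). Tspo is also made by macrophages and many other cells, so that its signal in whole testis is not that of Leydig cells alone.

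At the side chain cleavage step, Cyp11a1 had a log2 signal of 10.38 and 10.70 in KO replicates 1 and 2 and of 10.69 and 10.43 in WT replicates 1 and 2. KO replicate 2 and WT replicate 1 were high and the other 2 arrays low, so that each genotype held 1 pool of either level. The means were 10.54 ± 0.23 (SD, n = 2 pools) in KO and 10.56 ± 0.18 in WT, and the KO signal was 98.2% of the WT signal (95% confidence interval 76.6% to 126%, unadjusted p = 0.860 from limma). Fdx1, the electron donor of this enzyme, was at 7.78 and 7.85 in KO and at 7.92 and 7.87 in WT. The KO pools lay below the WT pools, and the gap between KO replicate 2 and WT replicate 2 was small. Its KO minus WT was -0.08 (standard error 0.05, unadjusted p = 0.203 from limma), and it had the lowest SD within genotypes of the 9 genes, 0.04.

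The study also measured Star, Cyp11a1 and Cyp17a1 by RT-PCR, in other mice than those of the arrays. These were cyclophosphamide-treated mice, Atm-null mice and Atr-hypomorphic (Seckel) mice. For Azin2 KO testes it reports no RT-PCR of these genes. The primers it used are shown to identify the mRNAs it followed. Each is written from its start to its end, the forward primer first.
Star forward: aaggaaagccagcaggagaac
Star reverse: ccacatctggcaccatcttactta
Cyp11a1 forward: tcctcaaagccagcatcaagg
Cyp11a1 reverse: cgaagcaccaggtcattcac
Cyp17a1 forward: acaactagctctgtgctgaactgg
Cyp17a1 reverse: cacctcaggattgtgcacca

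The step after pregnenolone is shared by Hsd3b1 and Hsd3b6, of which Hsd3b6 is the isoform of adult mouse Leydig cells. Hsd3b6 had a log2 signal of 11.50 and 11.61 in KO replicates 1 and 2 and of 11.69 and 11.57 in WT replicates 1 and 2. The groups overlapped, and all 4 arrays lay within 0.19. Its KO minus WT was -0.08 (standard error 0.07), or 94.8% of the WT signal (95% confidence interval 83.8% to 107%, unadjusted p = 0.315 from limma). Hsd3b1 had a log2 signal of 8.74 and 9.42 in KO and of 9.10 and 9.34 in WT. KO replicate 1 was the lowest and KO replicate 2 the highest of the 4 arrays. The 0.68 between these KO pools was the widest gap within a genotype among the 9 genes, against a KO minus WT of -0.14 (unadjusted p = 0.586 from limma). The 95% confidence interval of Hsd3b1, 59.8% to 138% of the WT signal, was the widest as well. In WT the 2 isoforms differed in their order too. WT replicate 1 was above WT replicate 2 for Hsd3b6 and below it for Hsd3b1.

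The promoters of these 2 neighbouring genes of chromosome 3 are shown because their mRNAs ran differently across the same 4 arrays. The RefSeq sequences (GRCm38.p6) run from 250 bases before to 50 bases after the start site, at chr3:98859745-98860044 for Hsd3b1 and chr3:98814394-98814693 for Hsd3b6, both on the minus strand and written along the gene. Capitals mark AGATAA, a sequence bound by GATA factors, or its reverse complement.
Hsd3b1: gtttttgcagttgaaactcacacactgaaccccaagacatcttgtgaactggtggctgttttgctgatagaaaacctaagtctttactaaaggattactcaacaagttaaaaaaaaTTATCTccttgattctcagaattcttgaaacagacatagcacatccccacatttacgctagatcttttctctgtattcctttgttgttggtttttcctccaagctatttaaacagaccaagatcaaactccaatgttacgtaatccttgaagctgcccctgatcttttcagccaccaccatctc
Hsd3b6: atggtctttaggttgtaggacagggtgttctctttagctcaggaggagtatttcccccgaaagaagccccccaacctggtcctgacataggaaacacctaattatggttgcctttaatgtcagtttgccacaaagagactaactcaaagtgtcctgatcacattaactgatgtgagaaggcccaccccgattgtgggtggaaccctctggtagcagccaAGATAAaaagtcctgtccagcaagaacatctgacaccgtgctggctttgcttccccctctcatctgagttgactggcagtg

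Hsd3b1 holds 1 match, as the reverse complement, that begins 134 bases before the start site. Hsd3b6 holds 1 match, which begins 31 bases before the start site. AGATAA was found on either strand in 11.2% of the 32851 promoters of the table, and in 2 of the 7 promoters listed for 6 of the 10 genes. A second sequence, AAGGTCA, the half-site of the steroidogenic factor NR5A1, was found in 4.72% of all promoters and in 0 of the 7, which says only that these letters are not in those windows. The GATA factor genes that Leydig cells use were measured on the same arrays. Gata4 was at 8.41 and 8.67 in KO and at 8.60 and 8.36 in WT, and Gata6 was at 8.77 and 8.75 in KO and at 8.82 and 8.82 in WT. For Gata4 the order of the arrays was KO replicate 2, WT replicate 1, KO replicate 1 and WT replicate 2. In RNA of whole testis these signals need not come from Leydig cells alone. Whether GATA factors bind either match, or bear on the signal of Hsd3b1 or Hsd3b6, was not tested.

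Most other Hsd3b genes with a probe set of their own were dim. The exception was Hsd3b7, an enzyme of bile acid synthesis, whose brighter probe set was above the median of every array at 6.43 and 6.55 in KO and 6.61 and 6.51 in WT, with overlapping genotypes and a KO minus WT of -0.07, against 0.10 for its dimmer probe set. Hsd3b2 was below the median of every array, with log2 signals from 4.43 to 4.57, and Hsd3b5, a liver isoform, lay between 4.04 and 4.20. Hsd3b3 was also below the median of every array, at 4.78 and 4.75 in KO and at 5.03 and 4.99 in WT. Both KO pools of Hsd3b3 were below both WT pools, at a KO minus WT of -0.24 (unadjusted p = 0.00505, adjusted p = 1.0 from limma). The Hsd3b genes are close relatives of one another, and whether their probes also bind other members of the family was not tested. Hsd3b4 shares its probe sets with Hsd3b5 and Gm10681 and has no value of its own. Those shared probe sets lay at 6.14 and 6.01 in KO and at 6.09 and 6.06 in WT, above the array median on 2 arrays only.

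The last 2 steps to testosterone are those of Cyp17a1 and Hsd17b3. Cyp17a1 had a log2 signal of 12.11 and 12.16 in KO replicates 1 and 2 and of 12.20 and 12.12 in WT replicates 1 and 2. All 4 arrays lay within 0.09, with the genotypes overlapping. The KO signal was 98.3% of the WT signal (95% confidence interval 88.9% to 109%, unadjusted p = 0.676 from limma). This probe set was near the top of the scale, as the highest signal on any array lay between 12.80 and 12.89, and whether a change would be compressed there was not tested. Hsd17b3, the dehydrogenase that makes testosterone in the testis, had a log2 signal of 9.54 and 9.90 in KO and of 9.90 and 9.71 in WT. KO replicate 1 was the lowest array, and KO replicate 2 and WT replicate 1 were level. Its means were 9.72 ± 0.25 (SD, n = 2 pools) in KO and 9.81 ± 0.13 in WT, a KO minus WT of -0.09 (standard error 0.14, unadjusted p = 0.553 from limma).

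**Figure D2:**
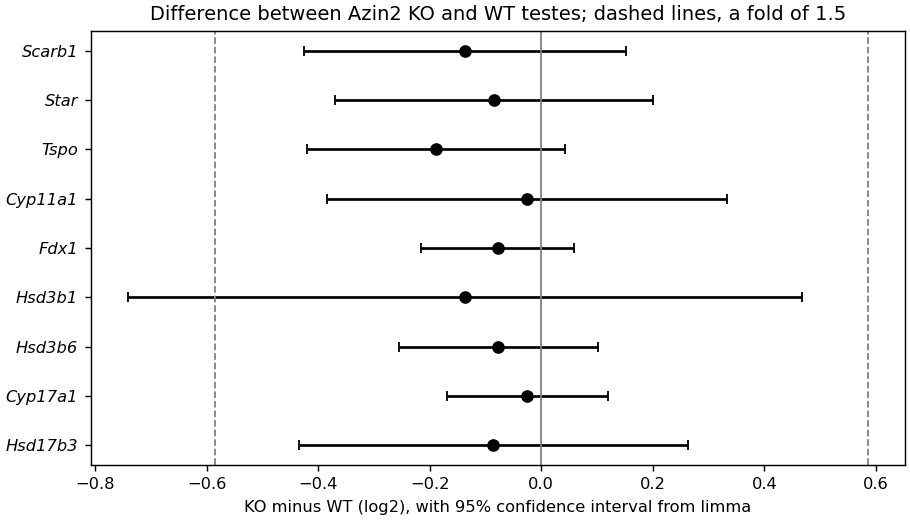
KO minus WT on the log2 scale (horizontal axis) of the 9 genes (vertical axis). Points are means and bars 95% confidence intervals from limma, with dashed lines at a fold of 1.5. All 9 intervals hold 0, and only that of Hsd3b1 crosses a dashed line, at its lower bound of -0.74.

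The intervals show what 4 arrays can bound when limma shares the spread between probe sets. It draws the spread of each gene toward that of all named probe sets. As 7 of the 9 genes varied more than the all-gene median, their intervals may be too narrow. Intervals from the spread of each gene alone are not given here. For 8 of the 9 genes the 95% confidence interval lay above a fall of 1.5-fold, the exception being Hsd3b1, and for all 9 it lay below a rise of 1.5-fold. These bounds hold for array signals, which include background hybridization. For all 9 genes the interval held 0.

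The 9 genes varied more between pools of one genotype than most genes. Their median SD within genotypes was 0.16, against 0.06 over all genes, and 7 of the 9 were above that all-gene median. The 2 below it were Cyp17a1 and Fdx1. For 7 of the 9 a gap between pools of one genotype was wider than the KO minus WT. This is close to the share over all genes, 79.0%, and so is not particular to the 9. The exceptions were again Tspo and Fdx1.

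The variation was largely shared. KO replicate 1 was the lowest of the 4 arrays for 8 of the 9 genes, the exception being Scarb1, whereas it was the lowest for 22.1% of all genes. KO replicate 2 was above KO replicate 1 for all 9 (50.6% of all genes), and WT replicate 1 was above WT replicate 2 for 8, Hsd3b1 being the exception (49.7% of all genes). Both held for 8 of the 9 genes and for 28.0% of all genes. With each gene set to its mean over the 4 arrays, the 9 genes averaged -0.15 and 0.06 across KO replicates 1 and 2, and 0.11 and -0.02 across the WT replicates. One pool of each genotype was thus high and the other low, and the 2 KO pools lay 0.21 apart. Genes of 1 cell type share their cells, so that these counts are no independent measurements.

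The difference between genotypes rested on single arrays. Without KO replicate 1, 5 of the 9 genes were below 0 and the median KO minus WT was -0.02. Cyp11a1, Cyp17a1, Hsd3b1 and Hsd17b3 were then above 0. Without WT replicate 1, 4 were below 0 and the median was 0.0053, with Star, Cyp11a1, Cyp17a1, Hsd17b3 and Scarb1 above 0. Without KO replicate 2 and without WT replicate 2 all 9 stayed below 0, at medians of -0.15 and -0.16. Tspo, Fdx1 and Hsd3b6 were below 0 whichever array was left out. The median over all genes was 0.01 each time.

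**Figure D3:**
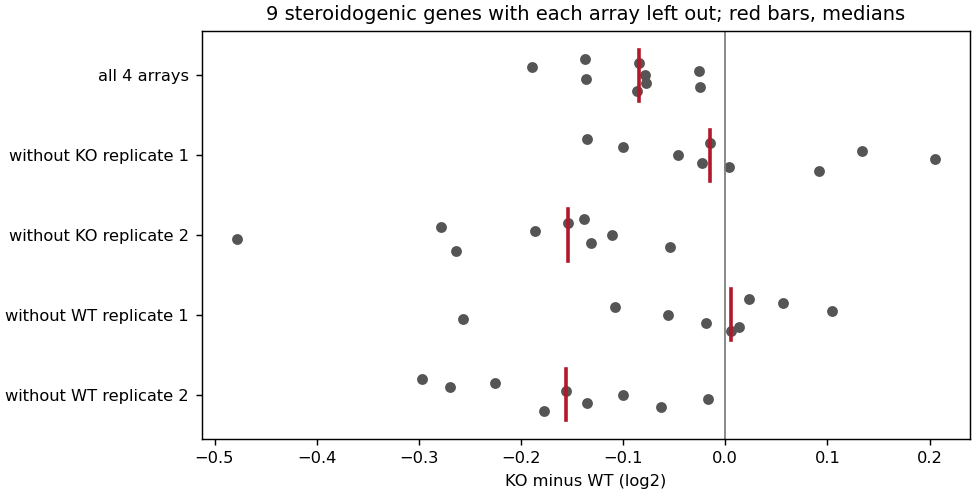
KO minus WT on the log2 scale (horizontal axis) with all 4 arrays and with each array left out in turn (vertical axis). Each point is 1 of the 9 genes and red bars are medians, which lie at -0.02 without KO replicate 1 and at 0.0053 without WT replicate 1, against -0.08 with all arrays.

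The wider set of steroid enzymes held 32 genes, of which 26 had a value of their own. Of these, 0 passed an adjusted p of 0.05 from limma, 16 were below 0 and 10 above, and their median KO minus WT was -0.01. An unadjusted p under 0.05 was reached by 3 of the 26, Sult1e1, Hsd3b3 and Cyp11b2, against 4.10% of all named probe sets. Sult1e1, which encodes the enzyme that sulfates estrogens in Leydig cells, was at 8.72 and 9.34 in KO and at 10.05 and 10.05 in WT. Both KO pools lay well below the WT pools, and it was the only gene of this set past the study's thresholds (KO minus WT -1.02, unadjusted p = 0.00397, adjusted p = 1.0 from limma). Here too KO replicate 1 was the lowest array. Cyp11b2, the aldosterone synthase of the adrenal cortex, was below the median of every array, and its KO minus WT was 0.18. Hsd17b1, at 0.13, was also below the median of every array. Electron transfer to Cyp17a1 is aided by cytochrome b5, and its gene Cyb5a had a KO minus WT of -0.04. Por, Srd5a1, Srd5a2, Cyp19a1 and Sts have no probe set in the annotation used.

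Cyp21a1, the steroid hydroxylase known from the adrenal, varied most of all genes in this set. Its brighter probe set was at 6.72 and 9.01 in KO replicates 1 and 2 and at 8.66 and 7.74 in WT replicates 1 and 2. The arrays differed by up to 2.29, and the order, from KO replicate 2 through WT replicate 1 and WT replicate 2 to KO replicate 1, was that of Cyp11a1. The KO minus WT was -0.34 (standard error 0.79, unadjusted p = 0.685 from limma). Its second probe set had the same order at 6.44, 6.17, 5.71 and 5.64, but a KO minus WT of the other sign, 0.10. That probe set was above the array median on 2 arrays only. Cyp21a1 has a near-identical pseudogene in the mouse, so that the source of this signal is uncertain. Of the other 4 adrenal markers with a value, Cyp11b1, Cyp11b2 and the corticotropin receptor gene Mc2r were below the median of every array, and Mrap, its accessory protein gene, lay between 6.45 and 6.69. As a set the 5 adrenal markers had a median KO minus WT of -0.04, with 0 past an adjusted p of 0.05 and 1, Cyp11b2, at an unadjusted p under 0.05 (4.10% of all named probe sets).

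Of 17 genes that supply cholesterol to the mitochondria, 14 had a value, 11 of them below 0, with a median of -0.03 and 0 past an adjusted p of 0.05. They ranged from -0.42 for the cholesterol exporter gene Abca1 to 0.07 for Dbi, which encodes the diazepam binding inhibitor, a ligand of TSPO. Abca1 was at 8.51 and 9.05 in KO and at 8.94 and 9.46 in WT, so that the genotypes overlapped (unadjusted p = 0.144 from limma). Acbd3, which encodes a partner of TSPO, was at 9.34 and 9.30 in KO and at 9.45 and 9.44 in WT, a KO minus WT of -0.13 (unadjusted p = 0.0495, adjusted p = 1.0 from limma). Stard5, a cholesterol carrier gene, had a KO minus WT of 0.06.

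Of 24 genes of luteinizing hormone signalling and of transcription factors that regulate steroidogenesis, 20 had a value of their own. None passed an adjusted p of 0.05 or an unadjusted p of 0.05, 11 were below 0, and the median was -0.03. Nr5a1, which encodes steroidogenic factor 1, was at 7.46 and 7.79 in KO and at 7.77 and 7.63 in WT. The order of the arrays was again that of Cyp11a1, and the KO minus WT was -0.08. The immediate early gene Egr1 had the lowest difference, -0.25, with WT replicate 1 at 6.64 and the other 3 arrays between 6.06 and 6.24. The phosphodiesterase gene Pde8b, whose product breaks down cyclic AMP, had a KO minus WT of -0.21, with KO replicate 1 at 6.66 and the other 3 arrays between 6.99 and 7.05. The highest were the growth factor receptor gene Igf1r at 0.13 and the hedgehog receptor gene Ptch1 at 0.09. The receptor gene of the hormone itself, Lhcgr, has no probe set in the annotation used.

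Leydig cell markers that do not make steroids were compared with the 9 genes by array, since a change in the number of Leydig cells would bear on both. Of 11 such markers 8 had a value of their own, 7 were below 0, and the median KO minus WT was -0.11, with 0 past an adjusted p of 0.05 and 1, the adhesion molecule gene Vcam1, at an unadjusted p under 0.05, again against 4.10% of probe sets (KO minus WT -0.20). The mean of the 8, set to the gene means, was -0.03 and -0.29 across the KO replicates and 0.25 and 0.07 across the WT replicates, an order unlike that of the steroidogenic genes. The kallikrein genes Klk1b27 and Klk1b24, whose products are made in Leydig cells, set this order. Klk1b27 was at 9.43 and 6.97 in KO and at 9.92 and 9.16 in WT, so that KO replicate 2 stood far below the other arrays (KO minus WT -1.34, unadjusted p = 0.163 from limma). Klk1b24 was at 9.88 and 8.79 in KO and at 10.19 and 9.97 in WT, with the same array lowest. These kallikreins are close paralogs, so that their probes may share signal. For the other 6 markers, a group chosen after the values were seen, the mean was -0.16 and 0.09 across the KO replicates and 0.08 and -0.0008 across the WT replicates. KO replicate 1 was the lowest array for 5 of these 6, such as the prostaglandin D synthase gene Ptgds at 10.76 against 10.94 to 11.34 on the other arrays, and Fabp3 at 10.62 against 10.90 to 11.04. Inha and Gramd1b had the highest KO minus WT of the list, at 0.07 and -0.03, and only Inha was above 0. In RNA of whole testis the signal of these markers, Inha and Nr5a1 among them, need not come from Leydig cells alone. Its cell source was not tested. Insl3, the hormone gene most specific to Leydig cells, shares its probe set with Jak3, which was at 8.20 and 8.46 in KO and at 8.34 and 8.29 in WT, again with KO replicate 1 lowest.

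**Figure D4:**
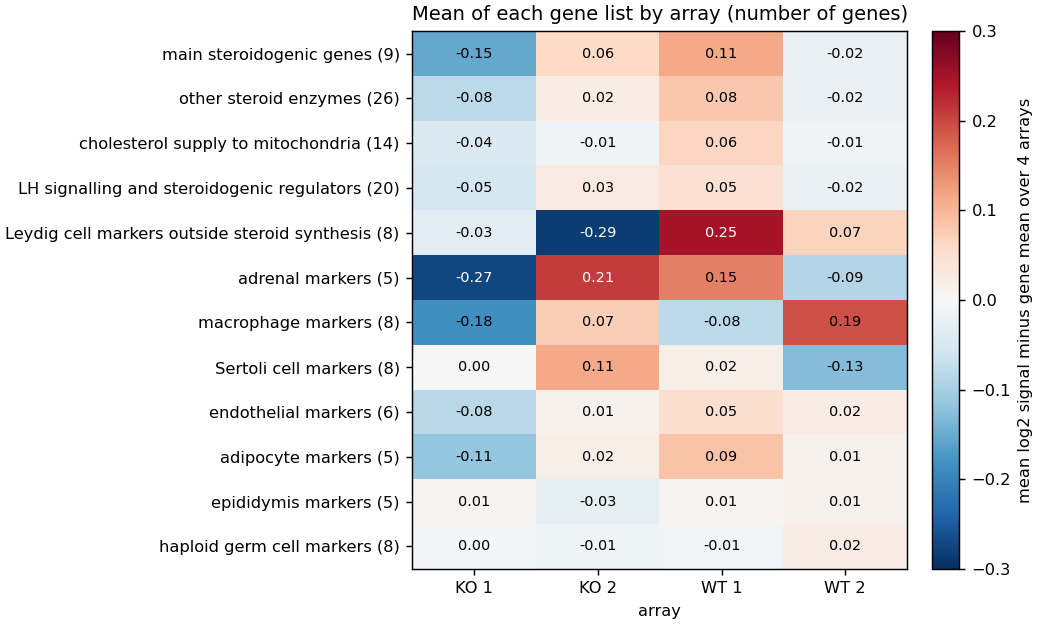
Mean log2 signal of each gene list (rows, with the number of genes) on each array (columns), each gene set to its mean over the 4 arrays. The 9 main steroidogenic genes lie at -0.15, 0.06, 0.11 and -0.02, and the Leydig cell markers outside steroid synthesis at -0.03, -0.29, 0.25 and 0.07.

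Markers of other cells of the tissue also differed between arrays. The 8 macrophage markers had means of -0.18 and 0.07 in the KO and -0.08 and 0.19 in the WT pools, with WT replicate 2 highest, a median KO minus WT of -0.15 and 7 of 8 below 0. The lowest were Cd68 and Csf1r at -0.25 and -0.24, and the highest Cd14 at 0.23 and Cd163 at -0.03. The 8 Sertoli cell markers had means of -0.0007 and 0.11 in the KO and 0.02 and -0.13 in the WT pools, a median of 0.10, and 0 of 8 below 0, from 0.05 for Wt1 and 0.06 for Cldn11 to 0.15 for Fshr and 0.21 for Amh. The 6 endothelial markers were all below 0, with a median of -0.07, from Vwf at -0.13 and Pecam1 at -0.09 to Tek at -0.06 and Kdr at -0.02, and their lowest array was KO replicate 1, at a mean of -0.08. The 5 adipocyte markers had a median of -0.03, with Fabp4 at -0.31 (unadjusted p = 0.0194, adjusted p = 1.0 from limma), Cidec at -0.18, Adipoq at -0.01 and Plin1 at 0.04, and KO replicate 1 was again their lowest array, at -0.11. The 8 haploid germ cell markers had means between -0.01 and 0.02 on the 4 arrays, with a median of -0.01 (Ldhc and Prm1 lowest at -0.06 and -0.05, Odf1 and Acrv1 highest at 0.02 each). The 5 epididymis markers were below the median of every array, with a median KO minus WT of -0.03 between Lcn8 at -0.06 or Adam28 at -0.04 and Cst11 at -0.01 or Lcn5 at 0.03. None of these markers passed an adjusted p of 0.05 from limma. What part the mix of cells in each pool has in the low steroidogenic signal of KO replicate 1 was not tested.

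Other genes shared the array profile of the steroidogenic genes. The genes with the nearest profile, by the root mean square difference over the 4 arrays from the mean profile of the 9, were Ankrd2 (0.0031), Slc30a2 (0.0096), Fads6 (0.0124), Mustn1 (0.0137) and Tspan18 (0.0137). The mean profile is steadier than a single gene, and among the 9 themselves this difference ran from 0.04 for Hsd3b6 to 0.21 for Hsd3b1, with a median of 0.06. Of 18811 other genes, 858 (4.56%) lay as near as that median. With 4 arrays such nearness is a description only.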

How the data were processed

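Biotin-labelled RNA of 4 pools of mouse testis, 2 from Azin2 KO and 2 from WT mice, was profiled on the Affymetrix Mouse Gene 1.1 ST array. The authors deposited log2 signals for 35556 probe sets. Their processing notes name RMA, which corrects background, normalizes arrays and summarizes probes, and Partek 6.13.1224. The paper names the Gene Atlas control and transcriptome analysis programs of the array's maker. The genome build and annotation version are not given in the sources used here. The number of arrays limits the precision.

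Probe sets were named through the platform annotation. A check of the symbols by gene identifier changed 0 of them. Of the probe sets, 21218 had 1 symbol, 1881 several and 12457 are unnamed here. A gene took its probe set with the highest mean. KO was compared with WT with limma 3.58.1 (R 4.3.3; lmFit, eBayes) on the deposited values of all 23099 named probe sets, unfiltered, with Benjamini-Hochberg adjustment over all of them and 95% intervals. The labels give the arrays of a genotype as separate pools. The limma p-values rest on the spread between those pools, drawn toward the spread of all named probe sets. Lists were described by counts and medians without a set test. Named were all members, Azin2, the 2 highest and 2 lowest genes of each list and the 5 nearest profiles; other genes were named after their values were seen. The members and lists were chosen with earlier results of these data known. The fit was tested on simulated data. Replicate numbers were not taken as pairs in the main fit. The replicate differences of KO and of WT had r = -0.0818 across probe sets. This cannot tell whether arrays of the same number were handled together. Alternatives were an intensity trend, robust eBayes, the methods' t-test (ordinary equal-variance test), quantile normalization, median centring, leaving out dim probe sets, keeping unnamed probe sets, the mean of a gene's probe sets, a replicate block and each array left out. Promoters came from RefSeq (6 of 10 genes), primers from the study's primer list. Plots were made in Python 3.11.15 (matplotlib 3.10.9).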

Additional observations from a re-analysis of the deposited data

How the results depend on the processing

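Of 81 recomputed differences of the 9 genes with all 4 arrays, 0 passed an adjusted p of 0.05 from limma or the methods' t-test. None of the 81 changed sign, but among those settings only quantile normalization and median centring could alter KO minus WT itself. Of 36 differences with 1 array left out, 9 changed sign. With each array left out in turn, KO minus WT ranged from -0.19 to 0.13 for Cyp11a1, -0.063 to 0.013 for Cyp17a1, -0.26 to 0.092 for Hsd17b3, -0.48 to 0.20 for Hsd3b1, -0.30 to 0.023 for Scarb1 and -0.23 to 0.057 for Star. The positive values came without KO replicate 1 (Cyp11a1, Cyp17a1, Hsd3b1 and Hsd17b3) or without WT replicate 1 (Cyp11a1, Cyp17a1, Hsd17b3, Scarb1 and Star). In the same settings, the number of genes below 0 ranged from 4 to 9, the number past an adjusted p of 0.05 was 0, and the median ranged from -0.16 to 0.0053. Genes with every KO array below every WT array then numbered 2 to 8, as fewer arrays were compared. That number was 1 (Fdx1) in place of 2 after quantile normalization, where Tspo overlapped. The number past a fold of 1.5 and an unadjusted p under 0.05 was 0 in each setting. At an unadjusted p under 0.05 the number was 0 with all arrays by limma, against 4.10% of named probe sets, and 0 by the methods' t-test. Without KO replicate 2, KO minus WT was -0.48 for Hsd3b1 and -0.28 for Tspo. Without WT replicate 2 it was -0.30 for Scarb1. The replicate block cannot move KO minus WT, as each replicate number holds 1 array of either genotype. The median thus stayed at -0.08, and no call changed. Each gene has 1 probe set, so that averaging probe sets changed nothing. A lone array was taken to vary as the arrays of the other genotype do. The 2 pools a genotype limit what differences can be seen.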
